A study of Caenorhabditis elegans with 4 samples.

Results

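The sperm genes were taken by name from the deposited gene table of the study. They comprised the msp, msd, ssp, ssq, nspd, spe and fer genes together with gsp-3 and gsp-4, and no expression value was used to choose them. There were 75 such genes among the 20389 genes of the table: 30 msp, 10 nspd, 7 ssp, 4 msd, 4 ssq, 2 gsp, 17 spe and 1 fer gene. All 75 matched a protein-coding gene of the same symbol in RefSeq (WBcel235). Polyadenylated mRNA was sequenced from dissected gonad arms of adult Caenorhabditis elegans hermaphrodites, with 2 libraries from met-2(n4256);him-8(tm611) animals and 2 from him-8(tm611) animals. Both genotypes thus carried the him-8 mutation, which prevents the X chromosomes from pairing and synapsing, and only met-2;him-8 lacked MET-2, the histone methyltransferase responsible for most dimethylation of histone H3 at lysine 9 (H3K9me2). Each RNA preparation used 400 gonad arms and 1.2 micrograms of total RNA, and wild-type gonads were not analysed here. The met-2;him-8 animals were recently derived from a balanced strain and were fertile, and the arms were cut from the animal at the spermatheca, where sperm are stored.

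In C. elegans hermaphrodites, sperm are made first, during late larval development, after which the germ line switches to oocytes for the rest of adult life. Sperm are small crawling cells that move by assembly of the major sperm protein (MSP), an abundant cytoskeletal protein that is also released to signal to oocytes and sheath cells. MSP is encoded by many near-identical intronless genes, so that short reads often match more than 1 copy. Most sperm transcripts are made in spermatocytes, before transcription stops in the maturing sperm.

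The libraries held between 14255714 and 49848077 reads on genes. The label of the targeted gene was checked first. Levels are given below in CPM, the read count of a gene scaled to library size by TMM normalization, for replicates 1 and 2 of a genotype in that order. In met-2;him-8, met-2 transcripts were at 25.8 and 52.8 CPM, and in him-8 they were at 127 and 212 CPM. The 10 oocyte marker genes summed to 19753 to 36895 CPM per library and the 7 germ cell markers to 4860 to 6039 CPM. The 7 intestinal markers summed to 447 to 771 CPM, the 4 body muscle markers to 42.2 to 178 CPM and the 4 epidermal markers to 0.690 to 2.99 CPM. Oocyte and germ cell markers, which define the labelled tissue, were thus abundant. Muscle and intestinal markers summed higher in both met-2;him-8 libraries than in either him-8 library, at 60.6 and 178 CPM against 46.6 and 42.2 CPM for muscle and 771 and 639 CPM against 503 and 447 CPM for intestine. Of the intestinal markers, only vit-2 and vit-6 were higher in met-2;him-8 without overlap, and vit-5, ges-1, elt-2, ifb-2 and act-5 overlapped. The muscle regulator hlh-1 had 0 and 3 reads in met-2;him-8 and 14 and 1 reads in him-8. The part of muscle and intestinal transcripts in the results below was not tested.

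Reads counted on the sperm genes were a small part of these adult gonad libraries. All 75 genes together took 0.0727% and 0.0351% of the reads in met-2;him-8, and 0.0734% and 0.0514% in him-8. They summed to 658 and 388 CPM in met-2;him-8 and to 705 and 536 CPM in him-8. Of this, spe-39, a gene used in many tissues, held 151 and 139 CPM in met-2;him-8 and 130 and 145 CPM in him-8. Of the 75 genes, 60 passed edgeR's expression filter, 7 had reads but did not pass it, and 8 had 0 reads in every library. The median level of the 60 tested sperm genes was 4.62 CPM, against 15.2 CPM for all 10875 tested genes, and 6 of the 60 lay above the median of all tested genes. Per kilobase of annotated exon, spe-39 was the highest of the 75 genes, with a mean of 72.7 CPM per kilobase. It was followed by msd-4 with 48.2, ssq-2 with 45.7, nspd-2 with 38.96 and ssq-4 with 37.4. The strongest msp copy, msp-64, was at 31.4 CPM per kilobase in counted reads, and the treatment of reads that match several copies is not known.

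The 8 genes with 0 reads were msp-79, msp-113, msd-1, msd-3, ssp-9, ssp-11, nspd-8 and spe-29. They made up 10.7% of the sperm genes, against 15.9% of all genes in the table. All 8 were also listed at 0 RPKM in both genotypes in the authors' table. Whether reads that match several copies were counted is not given in the sources used here, so a 0 for a copied gene is not a measured absence of its transcript. For reads that could be assigned, a count of 0 allows up to 3 reads, which correspond to 0.172 and 0.0814 CPM in met-2;him-8 and to 0.0602 and 0.210 CPM in him-8. These limits cover counting error only.

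The number of sperm genes at 0 reads was 10 and 13 in the replicates of met-2;him-8 and 10 and 12 in those of him-8. The msp family had 3, 3, 3 and 4 copies at 0 in that order of libraries, msd had 2 of its 4 copies at 0 in each library, ssp had 2, 3, 3 and 3 of 7, nspd had 1 of 10 in each, and spe had 2, 4, 1 and 2 of 17. No ssq, gsp or fer gene was at 0 in any library. The library with the most genes at 0, replicate 2 of met-2;him-8, was the second deepest. With each library reduced to the depth of the shallowest, the expected numbers at 0 were 10.4, 15.4, 10.4 and 12.

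Among the genes with reads that did not pass the filter, msp-74 had 0 and 1 reads in met-2;him-8 and 5 and 0 reads in him-8. The only read of msp-32 was in met-2;him-8 replicate 1, and the 3 reads of ssp-32 were in the same library. Transcripts of spe-12, spe-19, spe-38 and spe-42, which act in sperm activation or fertilization, were at 7 to 28 reads over all 4 libraries. The largest of these counts lay in him-8 replicate 1, the deepest library, for spe-12 (21 reads), spe-19 (7 reads) and spe-42 (19 reads). Differences in these genes between genotypes were not detectable at this depth.

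The sperm genes lay on the autosomes. Chromosome IV held 36 of the 75 genes (48.0%, against 16.3% of all genes in the table), chromosome I held 16, chromosome II held 15, and chromosomes III and V held 4 each. None lay on the X chromosome (0 of 75), which held 13.8% of all genes. The msp copies fell into 3 clusters in the coordinates of the deposited table, which names no genome build. The first held 13 copies on chromosome II from 4785893 to 5810310, the second 8 copies on chromosome IV from 5055623 to 5316898, and the third 9 copies on chromosome IV from 9688998 to 10143718.

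**Figure D1:**
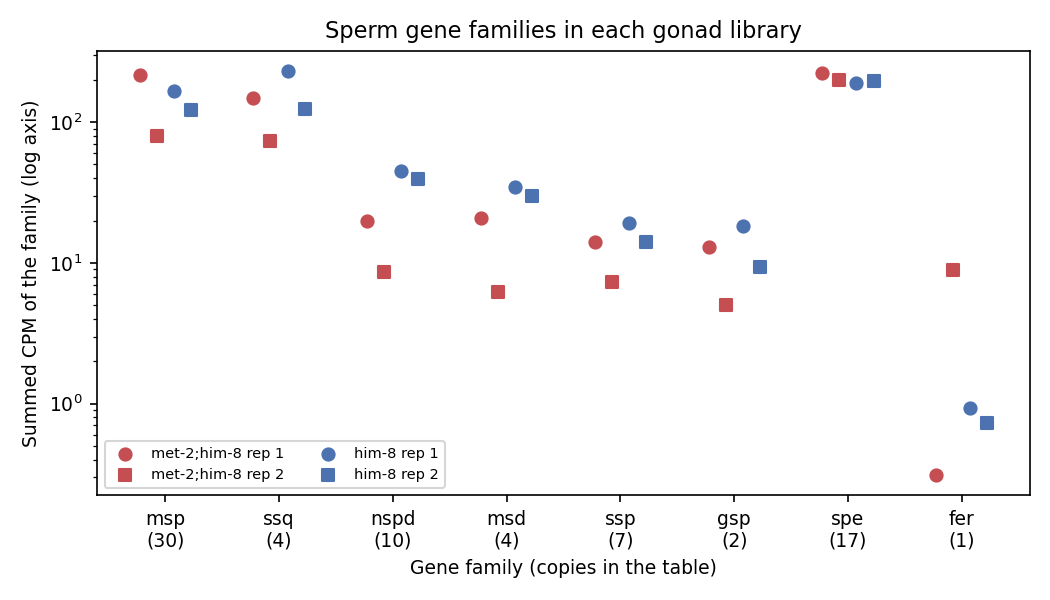
Summed level of each sperm gene family in the 4 libraries, in TMM-normalized CPM on a log axis, with the number of copies in parentheses. Circles are replicate 1 and squares replicate 2. For nspd and msd the met-2;him-8 points did not overlap the him-8 points and were lower, for spe they were higher by a small margin, and for msp they were the highest and the lowest.

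The comparison of genotypes asked whether loss of MET-2 altered these transcripts. No sperm gene was called at an adjusted p below 0.05 by the quasi-likelihood test of edgeR (0 of 60, Benjamini-Hochberg adjustment), where 0% of all tested genes were called (0 of 10875). The adjusted p-values of the 60 genes ran from 0.886 to 0.989. The mutated gene met-2 was not called either (log2 fold change of met-2;him-8 over him-8 -2.11, standard error 0.46, adjusted p = 0.886 in the same test). At an unadjusted p below 0.05 the same test gave 7 sperm genes (526 of all genes), and DESeq2's Wald test called 0 sperm genes and 25 of all genes, with nspd-1 the nearest sperm gene at an adjusted p of 0.179. With the replicate number as a block, edgeR called nspd-1 and msd-4 lower (0.533% of all tested genes) and no sperm gene higher (0 of 60, against 0.791%), but the sources do not pair the replicates. The replicates are separate preparations of dissected gonads, and the smallest p that an exact permutation test allows for a single value with 2 libraries per genotype is 0.333. In whole gonads, fewer sperm or spermatocytes and less RNA per cell cannot be told apart.

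The log2 fold change (met-2;him-8 over him-8) was below 0 for 39 of the 60 tested sperm genes (65.0%, against 48.5% of all tested genes), and their median was -0.44, against 0.02 over all tested genes. The genotypes did not overlap for 25 of the 60. In 20 of these met-2;him-8 was lower (33.3%, against 19.8% of all tested genes), and in 5 it was higher (8.33%, against 16.9%). All 7 sperm genes with an unadjusted p below 0.05 were lower in met-2;him-8 (11.7% of the 60, against 3.01% of all tested genes). These were nspd-1, nspd-2, nspd-4, nspd-5, nspd-10, ssp-10 and spe-26. The count of 39 rested on single libraries. Without met-2;him-8 replicate 1 it was 53, without met-2;him-8 replicate 2 it was 28, without him-8 replicate 1 it was 29, and without him-8 replicate 2 it was 44.

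**Figure D2:**
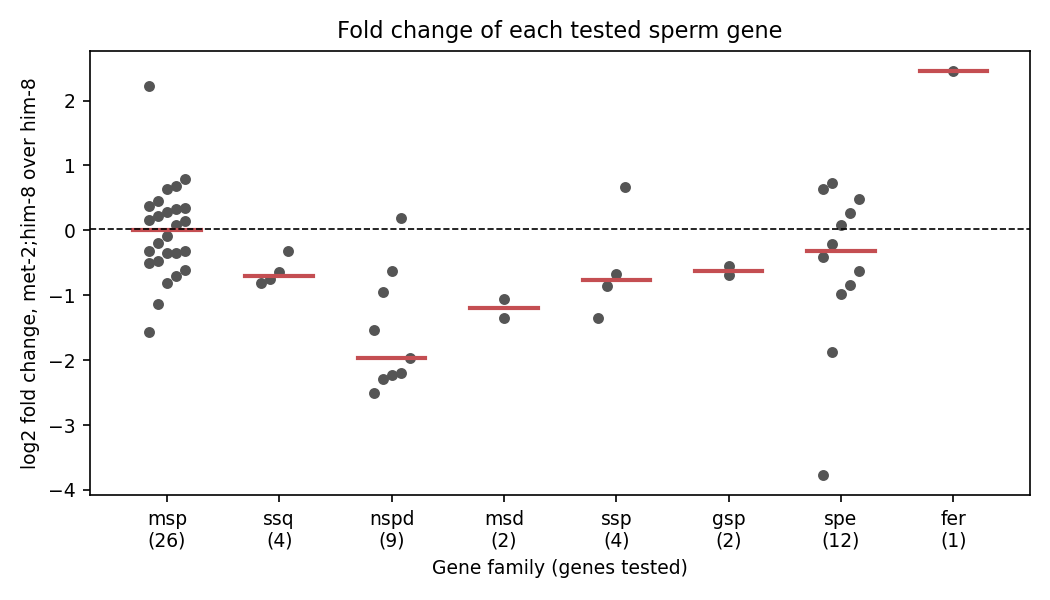
Log2 fold change (met-2;him-8 over him-8) of each of the 60 tested sperm genes by family. Each point is a gene, red bars are family medians, the dashed line is the median of all 10875 tested genes (0.02), and the number of genes tested is in parentheses. The nspd median lay at -1.96 and the msp median at 0.

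The spread between replicates was wide for sperm genes. In met-2;him-8, replicate 1 was above replicate 2 for 54 of the 60 genes (90.0%, against 50.8% of all tested genes), and in him-8 replicate 1 was above replicate 2 for 50 (83.3%, against 51.9%). The lowest of the 4 libraries was met-2;him-8 replicate 2 for 42 of the 60 genes (70.0%, against 31.2% of all tested genes). The median log2 ratio of replicate 1 to replicate 2, on log2(CPM + 0.5), was 0.96 in met-2;him-8 and 0.34 in him-8, where all tested genes gave 0.01 and 0.02. The library with the least sperm transcript, met-2;him-8 replicate 2, also had the highest marker sums for oocytes and somatic gonad. The 10 oocyte markers summed to 21102 and 36895 CPM in met-2;him-8 and to 19753 and 19932 CPM in him-8. The 8 somatic gonad markers summed to 509, 1642, 737 and 987 CPM in that order. Most of the somatic gonad sum was fln-1, at 345, 1502, 523 and 759 CPM. Of these markers only fln-1 was highest in met-2;him-8 replicate 2, while inx-8, inx-9, lim-7 and ipp-5 were lowest there. Among the oocyte markers, oma-1, oma-2, egg-1 and perm-2 were not highest there, and the others were. The part of these differences between libraries in the sperm gene results was not tested.

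The msp genes, which encode MSP itself, did not separate the genotypes. Summed over the 30 copies, msp transcripts were at 218 and 79.7 CPM in met-2;him-8 and 168 and 123 CPM in him-8. The met-2;him-8 libraries were thus the highest and the lowest of the 4, and the log2 ratio of the genotype means was 0.03. Without met-2;him-8 replicate 1 the ratio was -0.86, and without met-2;him-8 replicate 2 it was 0.58. Of the 26 copies tested, 13 had a log2 fold change below 0 and 13 above, none had an unadjusted p below 0.05 (0 of 26), and the median standard error was 0.66.

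The copy with the most reads was msp-64, with 354 and 239 reads in met-2;him-8 and 617 and 149 reads in him-8. Its levels were 18.3 and 7.17 CPM in met-2;him-8 and 11.9 and 10.9 CPM in him-8, so that the him-8 libraries lay between the met-2;him-8 libraries (log2 fold change 0.16, standard error 0.53, adjusted p = 0.983 in edgeR's test). Transcripts of msp-142 were at 18.1 and 6.54 CPM in met-2;him-8 and 10.6 and 5.12 CPM in him-8. Transcripts of msp-49 were at 15.3 and 6.69 CPM against 12.1 and 5.34 CPM, those of msp-50 at 13.5 and 3.66 CPM against 11.5 and 7.97 CPM, and those of msp-36 at 15.8 and 2.67 CPM against 8.89 and 8.48 CPM. In all 5 copies met-2;him-8 replicate 1 was the highest library and the genotypes overlapped. Over the 26 tested copies, met-2;him-8 replicate 1 was highest for 18 (69.2%, against 28.3% of all tested genes). The lowest library was met-2;him-8 replicate 2 for 17 copies (65.4%, against 31.2%). Because msp copies are near-identical, a read can fit several of them, and whether such reads were counted is not known. If they were shared between copies, the count of a single copy is less certain than the family sum. If they were left out, the family sum is too low as well.

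A few copies departed from the family sum and are named because of their values. Transcripts of msp-63 (chromosome II, 5797045 to 5797428) were at 1.66 and 1.11 CPM in met-2;him-8 and at 0.463 and 0.0731 CPM in him-8, where the last value was 1 read. Among the 26 tested copies it alone was higher in met-2;him-8 without overlap (log2 fold change 2.22, standard error 1.06, adjusted p = 0.886 in edgeR's test). The copies msp-53, msp-55, msp-65 and msp-76 were lower in met-2;him-8 without overlap. Of these, msp-76 (chromosome IV, 9688998 to 9689381) was at 5.34 and 2.76 CPM in met-2;him-8 and at 9.005 and 8.77 CPM in him-8 (log2 fold change -1.14, standard error 0.50, adjusted p = 0.886 in the same test). Thus 4 of the 26 copies were lower and 1 higher without overlap, where 19.8% and 16.9% of all tested genes were.

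The msp copies of the 2 chromosomes were also compared, a comparison chosen after the values were seen. Of the 11 tested copies on chromosome II, 8 had a log2 fold change above 0 and the median was 0.33. Of the 15 on chromosome IV, 5 had a log2 fold change above 0 and the median was -0.35. Within a library, the summed chromosome II copies were 1.38 and 1.53 times the summed chromosome IV copies in met-2;him-8, and 1.11 and 0.910 times in him-8. The ratio was higher in both met-2;him-8 libraries than in both him-8 libraries, although neither sum separated the genotypes. Summed CPM were 126 and 48.2 in met-2;him-8 and 88.0 and 58.5 in him-8 for chromosome II, and 91.3 and 31.5 in met-2;him-8 and 79.5 and 64.2 in him-8 for chromosome IV. How reads were shared between copies of the 2 chromosomes was not measured, and msp-31, msp-33 and msp-45 on chromosome II share their span in the deposited table with another gene.

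**Figure D3:**
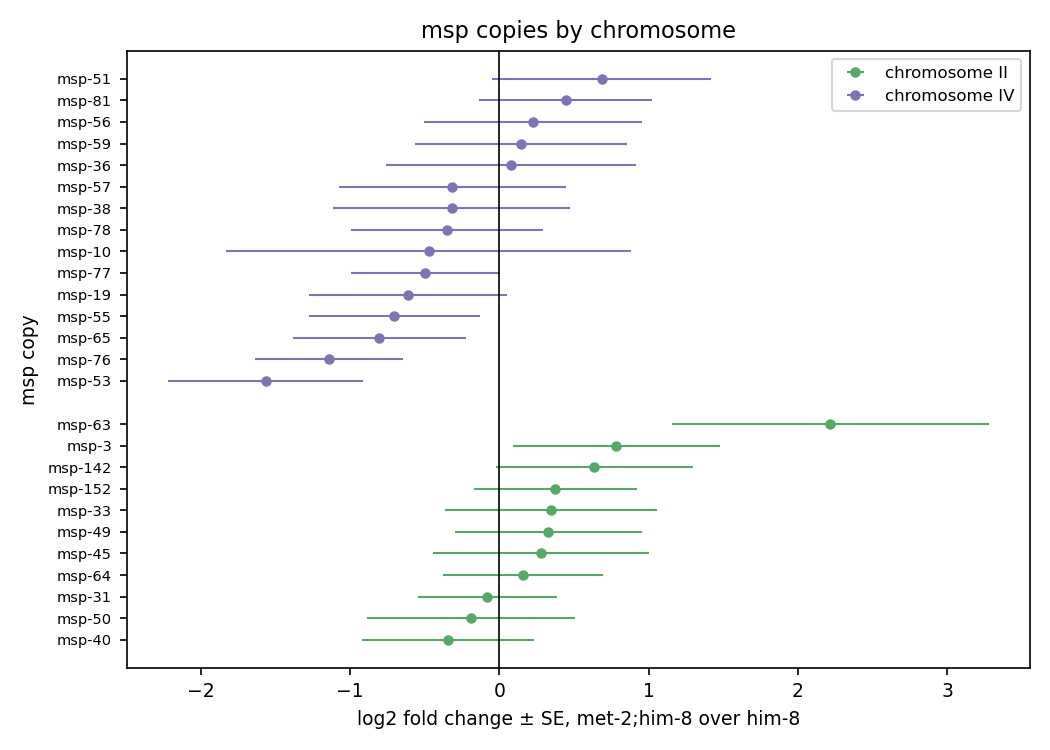
Log2 fold change (met-2;him-8 over him-8) with its standard error for the 26 tested msp copies, 11 on chromosome II (green) and 15 on chromosome IV (purple), each ordered by fold change. Most error bars cross 0, and 8 of 11 copies on chromosome II lay above 0 against 5 of 15 on chromosome IV.

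The nspd genes, which encode a family of short nematode-specific peptides (group D), were the family with the lowest level in met-2;him-8 relative to him-8. Summed over 10 copies, they were at 19.7 and 8.64 CPM in met-2;him-8 and at 45.0 and 39.3 CPM in him-8. The genotypes did not overlap, and the log2 ratio of the means was -1.57 (-2.29 without met-2;him-8 replicate 1 and -1.10 without met-2;him-8 replicate 2). Of the 9 copies tested, 8 had a log2 fold change below 0, 7 were lower without overlap, and 5 had an unadjusted p below 0.05. Over all tested genes, 48.5% had a log2 fold change below 0, 19.8% were lower without overlap and 3.01% were lower at an unadjusted p below 0.05. None of the 9 passed the adjusted threshold in edgeR's test with its default filter and no replicate block (0 of 9), and nspd-1 passed it with no filter (adjusted p = 0.0373). The share of all genes that passed with no filter is not given here.

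Transcripts of nspd-1 (ZK484.8, chromosome I, 6097581 to 6097793) had 67 and 37 reads in met-2;him-8 and 678 and 125 reads in him-8. Their levels were 3.47 and 1.11 CPM in met-2;him-8 and 13.1 and 9.14 CPM in him-8, with the lowest him-8 library above the highest met-2;him-8 library (log2 fold change -2.29, standard error 0.68, adjusted p = 0.886 in edgeR's test). The most abundant copy, nspd-2, was at 6.17 and 2.37 CPM in met-2;him-8 and at 12.7 and 12.0 CPM in him-8 (log2 fold change -1.54, standard error 0.57). Transcripts of nspd-5 were at 1.24 and 0.570 CPM against 3.53 and 4.90 CPM, and those of nspd-4 at 0.466 and 0.15 CPM against 1.33 and 2.12 CPM. In these 4 copies the genotypes did not overlap. Transcripts of nspd-10 were at 0.829 and 0.900 CPM in met-2;him-8 and 4.28 and 3.65 CPM in him-8 (log2 fold change -2.19, standard error 0.55), but nspd-10 shares its span in the deposited table with bath-25. The copies nspd-6 and nspd-9, with 55 and 96 reads over the 4 libraries, were also lower without overlap, at 0.311 and 0.300 CPM against 0.598 and 0.585 CPM for nspd-6. Without met-2;him-8 replicate 1 or 2, the log2 fold change was -3.31 or -1.69 for nspd-1 and -2.37 or -1.01 for nspd-2. The differences were smaller for nspd-7, at 5.34 and 2.85 CPM against 7.42 and 5.19 CPM, where the genotypes overlapped. For nspd-3 the levels were 1.29 and 0.300 CPM against 0.848 and 0.512 CPM, and its log2 fold change of 0.19 was the only one above 0.

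The msd genes encode small proteins with an MSP domain. The 2 copies with reads were msd-2 and msd-4. Transcripts of msd-4 were at 14.0 and 3.99 CPM in met-2;him-8 and at 23.7 and 22 CPM in him-8 (log2 fold change -1.35, standard error 0.64, adjusted p = 0.886 in edgeR's test). Those of msd-2 were at 6.89 and 2.25 CPM against 10.9 and 7.97 CPM (log2 fold change -1.05, standard error 0.65). In both genes the libraries of the genotypes did not overlap, and met-2;him-8 replicate 2 was the lowest. The size of the difference rested on single libraries. Without met-2;him-8 replicate 1 or 2, the log2 fold change was -2.51 or -0.72 for msd-4 and -2.06 or -0.47 for msd-2.

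The ssp genes (sperm-specific family, class P) also encode small MSP-domain proteins, and 4 of the 7 were tested. Transcripts of ssp-10 were at 2.80 and 2.28 CPM in met-2;him-8 and at 7.50 and 5.41 CPM in him-8, without overlap (log2 fold change -1.35, standard error 0.47). Those of ssp-31 were at 2.90 and 1.23 CPM against 3.70 and 3.73 CPM, again without overlap. For ssp-16 the levels were 4.51 and 1.08 CPM against 5.67 and 3.07 CPM, and the genotypes overlapped. The order was opposite for ssp-19, at 3.78 and 2.73 CPM in met-2;him-8 and 2.24 and 1.83 CPM in him-8 (log2 fold change 0.67, standard error 0.53). The family sum overlapped between genotypes, at 14.1 and 7.32 CPM against 19.1 and 14.0 CPM.

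The ssq genes (sperm-specific family, class Q) were the most read of the small families, and their sum was at 148 and 72.9 CPM in met-2;him-8 and 231 and 123 CPM in him-8. In both genotypes replicate 1 was about as far above replicate 2, by 2.03 times in met-2;him-8 and 1.88 times in him-8, and the genotypes overlapped. Transcripts of ssq-2 were at 65.4 and 28.6 CPM against 96.8 and 50.0 CPM, those of ssq-4 at 44.0 and 22.7 CPM against 74.0 and 37.9 CPM, and those of ssq-3 at 14.3 and 5.64 CPM against 16.9 and 7.82 CPM. All 4 log2 fold changes were below 0, from -0.81 to -0.32. Only ssq-1 did not overlap, at 24.3 and 16.1 CPM in met-2;him-8 and 43.2 and 27.3 CPM in him-8 (log2 fold change -0.81, standard error 0.39).

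The genes gsp-3 and gsp-4 encode the sperm forms of protein phosphatase 1, needed for chromosome segregation in spermatocytes and for sperm motility. Transcripts of gsp-3 were at 6.89 and 2.55 CPM in met-2;him-8 and at 10.6 and 4.53 CPM in him-8 (log2 fold change -0.69, standard error 0.70). Those of gsp-4 were at 6.06 and 2.46 CPM against 7.62 and 4.75 CPM (log2 fold change -0.55, standard error 0.61). In both genes the libraries had the same order, him-8 replicate 1 highest and met-2;him-8 replicate 2 lowest, and the genotypes overlapped.

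Set against the msp reads of the same library, 5 of the 7 other families separated the genotypes, a comparison chosen after the values were seen. The nspd reads were 0.0905 and 0.108 of the msp reads in met-2;him-8 and 0.269 and 0.320 in him-8. The msd reads were 0.0960 and 0.0783 of the msp reads in met-2;him-8 and 0.206 and 0.244 in him-8. On a log2 scale the difference between genotypes was -1.57 for nspd, with a pooled standard deviation between replicates of 0.18, and -1.37 for msd, with 0.19. This spread was smaller than that of the family sums, which was 0.60 for nspd and 0.88 for msd. The msp sum of replicate 1 was 2.73 times that of replicate 2 in met-2;him-8 and 1.37 times in him-8. The nspd and msd sums were also higher in replicate 1, so that division by msp lowers their spread. The ssp reads were 0.0650 and 0.0919 of the msp reads against 0.114 and 0.114, the ssq reads 0.680 and 0.915 against 1.38 and 1.003, and the gsp reads 0.0595 and 0.0629 against 0.109 and 0.0756. In these 5 families the ratios of met-2;him-8 were below those of him-8 without overlap. The spe and fer ratios overlapped between genotypes, at 1.03 and 2.50 against 1.13 and 1.60 for spe and at 0.00143 and 0.111 against 0.00552 and 0.00596 for fer. The ratios share the msp sum as denominator and are therefore not independent of each other. They also depend on how reads that match several msp copies were treated, which is not known.

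**Figure D4:**
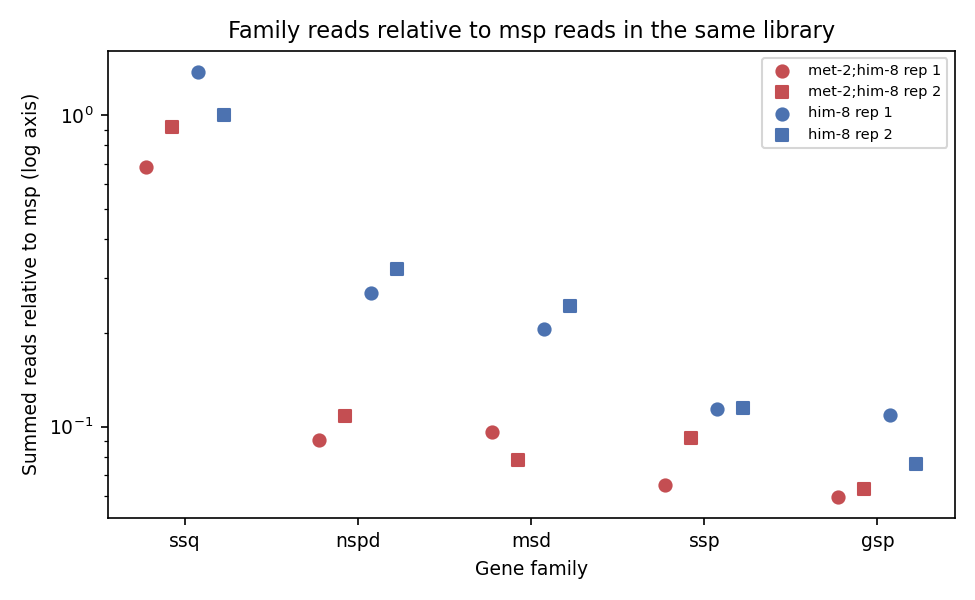
Summed reads of 5 sperm gene families divided by the summed msp reads of the same library, on a log axis, for the 5 families that did not overlap (spe and fer, which did, are not drawn). Circles are replicate 1 and squares replicate 2. The nspd ratio was 0.0905 and 0.108 in met-2;him-8 and 0.269 and 0.320 in him-8.

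The spe genes, named for spermatogenesis-defective mutants, act at different steps and differed widely in level. Summed over all 17, they were at 224 and 199 CPM in met-2;him-8 and at 189 and 197 CPM in him-8, higher in met-2;him-8 without overlap (log2 ratio of the means 0.14). Most of these reads came from spe-39, spe-15 and spe-6. Transcripts of spe-39, which encodes a vesicle trafficking protein used in many tissues, were at 151 and 139 CPM in met-2;him-8 and at 130 and 145 CPM in him-8 (log2 fold change 0.08, standard error 0.20, adjusted p = 0.979 in edgeR's test). Transcripts of spe-15, which encodes a class VI myosin, were at 45.9 and 34.8 CPM against 30.6 and 27.0 CPM, and those of spe-6, which encodes a casein kinase I family member, at 17.4 and 18.6 CPM against 10.5 and 12.7 CPM. For spe-15 and spe-6 the levels in met-2;him-8 were higher without overlap (log2 fold changes 0.48 and 0.63, standard errors 0.29 and 0.32). In the deposited table spe-15 shares its span with gst-25.

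The other spe genes were at or below 6.52 CPM in every library. Transcripts of spe-26, which encodes a kelch-like protein needed in spermatocytes, were at 0.725 and 0.600 CPM in met-2;him-8 and at 3.01 and 1.83 CPM in him-8, without overlap (log2 fold change -1.87, standard error 0.68), and spe-26 shares its span in the table with R10H10.3. Transcripts of spe-41, which encodes a TRP channel needed for fertilization, were at 1.76 and 4.23 CPM against 6.52 and 5.34 CPM, again without overlap, but here met-2;him-8 replicate 2 was not the lowest library. Those of spe-11, which encodes a factor that sperm supply to the embryo, were at 1.55 and 0.660 CPM against 2.26 and 1.68 CPM. For spe-4, which encodes a presenilin-like protein of the sperm secretory organelles, the counts were 48 and 8 reads in met-2;him-8 and 110 and 13 reads in him-8, so that replicates differed more than genotypes. Summed without spe-39, spe-15 and spe-6, which were set aside after their values were seen, the other 14 spe genes were at 9.79 and 7.02 CPM in met-2;him-8 and at 17.4 and 12.4 CPM in him-8, lower without overlap and thus opposite to the sum of all 17.

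The single fer gene, fer-1 (F43G9.6, chromosome I, 8623150 to 8631178), encodes a ferlin that fuses the membranous organelles of sperm with the plasma membrane. It had 6 and 295 reads in met-2;him-8 and 48 and 10 reads in him-8. Thus met-2;him-8 replicate 2, the library with the least of most sperm transcripts, held most of the fer-1 reads, and the genotypes overlapped (log2 fold change 2.46, standard error 1.44, adjusted p = 0.891 in edgeR's test). Without that library the log2 ratio of the means was -1.41. No other gene of the deposited table overlaps fer-1.

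Sperm genes outside these families, from a list set with the other marker lists, had mostly the same direction. Of 11 such genes, all tested, 9 had a log2 fold change below 0, against 48.5% of all tested genes. Without overlap, 6 were lower in met-2;him-8 and none was higher (0 of 11), against 19.8% and 16.9% of all tested genes. The median log2 fold change of the 11 was -0.89, and none was called in edgeR's test (0 of 11). At an unadjusted p below 0.05 the same test gave 1 gene, lower in met-2;him-8, against 3.01% of all tested genes. Transcripts of spch-1 and spch-3, which encode small basic sperm chromatin proteins, were at 6.32 and 5.64 CPM against 13.9 and 8.92 CPM, and at 3.37 and 2.67 CPM against 9.26 and 5.99 CPM. For spch-2 the genotypes overlapped, at 1.87 and 1.32 CPM against 1.52 and 1.53 CPM (log2 fold change 0.05). Transcripts of smz-1, which encodes a PDZ-domain sperm protein, were at 3.78 and 3.84 CPM in met-2;him-8 and 7.73 and 6.36 CPM in him-8. For the spermatogenesis Argonautes alg-3 and alg-4 the genotypes overlapped, at 3.21 and 1.92 CPM against 6.05 and 1.68 CPM and at 3.42 and 2.64 CPM against 7.40 and 3.14 CPM. A further 22 genes carry spe or ssp names in RefSeq but not in the deposited table. Of the 14 that were tested, 11 had a log2 fold change below 0, with a median of -0.51, and ssp-37 was the 1 gene with an unadjusted p below 0.05, at 4.87 and 3.42 CPM in met-2;him-8 and 1.48 and 1.24 CPM in him-8. This second list was drawn up after the values were seen.

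The list of sperm fate genes had a different median. Its 9 genes were fog-1, fog-2, fog-3, fem-1, fem-2, fem-3, tra-1, tra-2 and elt-1. Of these, 2 had a log2 fold change below 0, against 48.5% of all tested genes. The median of the 9 was 0.29, with none called (0 of 9, and 0 at an unadjusted p below 0.05 in edgeR's test). Transcripts of fog-1, which promotes sperm fate, were at 43.7 and 34.7 CPM in met-2;him-8 and at 29.5 and 34.6 CPM in him-8. Those of fog-3, which acts with it, were at 0.570 and 1.89 CPM against 0.887 and 0.512 CPM. The transcription factor gene spe-44, which drives many sperm genes, was at 36.5 and 40.6 CPM against 35.2 and 36.4 CPM (log2 fold change 0.10, standard error 0.25). The 2 genes of the male seminal cell list, swm-1 and try-5, had 1 and 10 reads and 1 and 4 reads in met-2;him-8, against 83 and 21 reads and 8 and 4 reads in him-8. Their part in the sperm gene values was not tested.

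The values the authors deposited as RPKM, 1 per genotype, differed from reads per length by a factor that varied between families. For the 9 nspd genes with at least 40 reads, 213 to 222 bases long, the authors' RPKM was 5.72 times the value obtained from the reads, the annotated exon length and the library total (range 5.56 to 6.03). The ratio was 2.48 for the 6 ssp and msd genes of 324 to 330 bases, 1.97 for the 26 msp copies of 384 bases (range 1.91 to 2.03) and 1.47 for the 14 genes of 1115 to 6267 bases (range 0.925 to 2.65). It was below 1 for ssq-2 (0.925) and ssq-4 (0.952) and highest among these longer genes for spe-39. The median ratio was thus higher in the families of shorter genes. As an example, nspd-2 in him-8 is given at 336 RPKM, against 57.9 from reads and length, and msp-64 in him-8 at 60.7 RPKM, against 29.7 from reads and length.

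**Figure D5:**
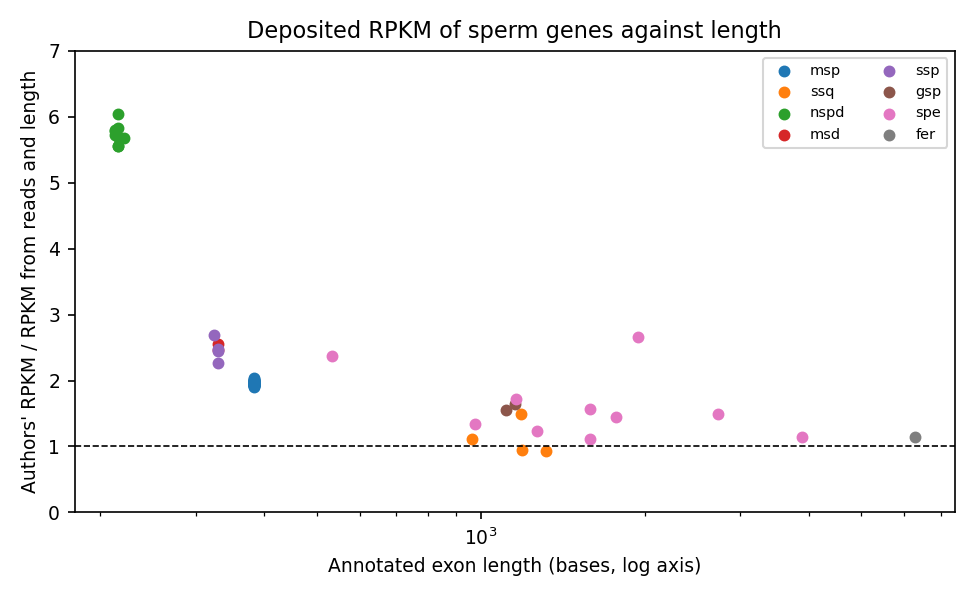
Authors' RPKM divided by RPKM computed from reads, annotated exon length and library totals, for the sperm genes with at least 40 reads over the 4 libraries, against exon length in bases on a log axis. Each point is a gene coloured by family, and the dashed line marks equal values. The 9 nspd genes stood highest, with a median ratio of 5.72.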

How the data were processed

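Libraries were made from polyadenylated RNA of dissected gonads. STAR was used for alignment and Cuffdiff 2.2.1 for quantification, per the labels and methods. The values deposited as read counts are estimated counts, not scaled to depth, with 1 column per library. The authors' Cuffdiff table gives RPKM, with both replicates of a genotype combined into 1 value. That table also holds the authors' fold changes, p-values and q-values, which were not used. The tool and annotation behind the counts, and their treatment of reads that match several copies, are not given in the sources used here. No sperm gene had a count that was not whole, and all counts were rounded. Gene starts in the table count from 0 and are printed counting from 1.

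The test was the quasi-likelihood F test of edgeR 4.0.16, run in R 4.3.3 (TMM, default expression filter, Benjamini-Hochberg adjustment over all 10875 genes tested, threshold 0.05). Standard errors were derived from the F statistic. The design had assumed whole counts. Exon lengths came from the Ensembl WBcel235 annotation and matched all 75 genes. No coordinates were taken from it. Alternatives were RLE and upper quartile normalization, no filter, a filter of 10 reads in 2 libraries, DESeq2 1.42.0, a replicate block and leaving out each library. The fit was tested on simulated data. Named genes were gsp, spe and fer genes with at least 10 reads in every library, up to 5 copies with the most reads in each other family, and genes with an unadjusted p below 0.05 or an adjusted p below 0.05 with the block, and spe or fer genes below 3 reads in 1 library and at 100 or more in another. Others are named as chosen after their values were seen, or to account for every member. The genes and lists were chosen with earlier results of these data known. The values of 1 spe gene are not reported here.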

Additional observations from a re-analysis of the deposited data

How the results depend on the processing

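Of the settings that kept every library, 2 gave calls among the sperm genes. With the replicate number as a block, 2 were called lower in met-2;him-8, where 0.533% of all tested genes were called lower. These were nspd-1 (adjusted p = 0.00177 in edgeR's test) and msd-4 (adjusted p = 0.0297 in the same test). With no filter, 1 was called lower (nspd-1, adjusted p = 0.0373 in edgeR's test). The share of all genes called with no filter is not given here. The labels do not say that a replicate number marks a shared batch or day. The deviations of same-numbered libraries from their genotype means correlated at 0.475 over all tested genes and at 0.296 over the sperm genes. The block also turned msp-36 to -0.38. The log2 ratio of the spe sum was 0.27 without its most read copy and -0.51 as a median over copies. The other 29 family values from settings that kept all libraries moved by less than the spread between replicates. When 1 library was left out, the log2 ratio of sums lay between -0.86 and 0.58 for msp, -2.37 and -0.63 for msd, -1.18 and -0.23 for ssp, -2.29 and -1.10 for nspd, -1.45 and -0.048 for gsp, and -1.41 and 3.42 for fer. The copies with a log2 fold change below 0 then numbered 6 to 25 of 26 for msp, 7 to 9 of 9 for nspd and 28 to 53 of 60 in all, counts added after the data were seen. Single genes that changed sign ranged from -1.57 to 0.039 for gsp-3, -0.26 to 1.25 for msp-142, -1.69 to 0.85 for msp-36, -0.38 to 1.03 for msp-49, -1.40 to 0.46 for msp-50, -0.66 to 0.67 for msp-64, -0.0071 to 0.16 for spe-39, -2.02 to 0.017 for ssp-16 and -1.13 to 0.33 for ssq-3. The cause was not tested. Against msp reads, the ratio ranged from -0.83 to -0.31 for gsp and -0.81 to -0.31 for ssp. In the fits with 1 library left out, 1 library stood for its genotype and was assumed to vary like the rest. Low transcripts are limited by the depth of him-8 replicate 2.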
